A study of Mus musculus with 7 samples.

Results

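The genes described here are 10 members of the NF-kappaB system, chosen by symbol from a count table of 21878 genes: the 5 subunits Nfkb1, Nfkb2, Rel, Rela and Relb, and 5 genes named as inhibitors, Nfkbia, Nfkbie, Nfkbiz, Tnfaip3 and Bcl3. All 10 were found in the table and all 10 passed the filter on low counts, which kept 12997 genes. They were measured in 7 tumours grown from B16F10, a pigmented melanoma line of mouse origin, in female C57BL/6J mice whose groups were drawn at random once tumours could be felt. The Zelnorm group held 4 tumours, from mice dosed by mouth with 1.25 mg/kg at intervals of 2 days, and the NC group held 3 control tumours. Zelnorm is sold as a gut motility drug; its substance is tegaserod, which partially activates the serotonin receptor 5-HT4. The labels also use the letters MBZ for the Zelnorm group without explaining them. Age, the length of treatment and any vehicle given to NC mice are not stated in the sources used here. B16F10 is a single line, so the tumours are grafts of the same cells in hosts that keep their own immune system, and each library mixes RNA of tumour and host cells. Nothing in the labels ties each library to a separate mouse. The p-values therefore measure only the spread between these samples, which may be technical in part.

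NF-kappaB proteins are dimers of Rel-family subunits that bind kappaB sites in DNA. In resting cells they are held in the cytoplasm by IkappaB proteins. Signals from tumour necrosis factor, interleukin-1 or Toll-like receptors activate the IkappaB kinase (IKK), IkappaB is degraded, and dimers of RelA or c-Rel with p50 enter the nucleus. A slower, non-canonical route processes p100 to p52 and releases dimers with RelB. Several inhibitors are themselves induced by NF-kappaB and close a feedback loop, so their transcripts are often read as signs of recent pathway activity. In tumours the pathway runs in malignant cells, macrophages and lymphocytes alike.

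Library totals ran from 16903598 to 19666598 counts in Zelnorm tumours and from 18079258 to 19547390 in NC tumours. Levels are given as CPM, counts relative to library size after scaling by trimmed mean of M values (TMM). The pigment cell markers of the grafted line (Tyr, Tyrp1, Dct, Pmel, Mlana, Mitf and Sox10) were present in every library, with a summed level between 26548 and 28702 CPM in Zelnorm tumours and between 24512 and 27731 CPM in NC tumours. All 8 pan-leukocyte and all 8 macrophage markers had positive log2 fold changes. At an unadjusted edgeR p under 0.05, 6 of 8 were higher in Zelnorm in each list, beside 6.94% of all tested genes. After adjustment 0 passed in either list. The summed pan-leukocyte level ran from 229 to 380 CPM in Zelnorm tumours and from 175 to 262 CPM in NC tumours. The macrophage sum ran from 406 to 596 CPM in Zelnorm tumours and from 213 to 437 CPM in NC tumours. The T cell sum ran from 10.8 to 21.1 CPM in Zelnorm and from 8.65 to 12.4 CPM in NC tumours. The skeletal muscle sum ran from 4.28 to 256 CPM in Zelnorm and from 5.07 to 28.4 CPM in NC tumours. In bulk tissue, fewer cells of a type and less RNA per cell cannot be told apart.

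No subunit or inhibitor of NF-kappaB passed the adjusted test between Zelnorm and NC tumours. The 5 subunits had log2 fold changes (Zelnorm over NC) between -0.01 and 0.19, and the 5 inhibitors between -0.02 and 0.66. With edgeR's quasi-likelihood test and Benjamini-Hochberg adjustment over 12997 genes, 0 of the 10 members rose and 0 fell at the threshold of 0.05, against 4 genes called in the whole table, all higher in Zelnorm (0.0308% of those tested). At an unadjusted edgeR p under 0.05 the count was 1, Bcl3, which was higher in Zelnorm, where 10.3% of all tested genes passed in either direction and 6.94% passed with higher levels in Zelnorm. DESeq2 called 0 members at an adjusted p under 0.05 (1.72% of the genes it gave an adjusted p), and 1, Bcl3, at an unadjusted p under 0.05 (7.73%). The median log2 fold change of the members was 0.09, beside 0.00036 over all tested genes. Positive values were found for 8 of 10 members and for 50.15% of all tested genes. Of the positive members, Rel (0.0054) and Rela (0.03) were close to 0, and their sign turned in 6 and 1 of 13 alternative fits. The sign of the negative members, Tnfaip3 and Nfkb2, turned in 4 and 1 of them.

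**Figure D1:**
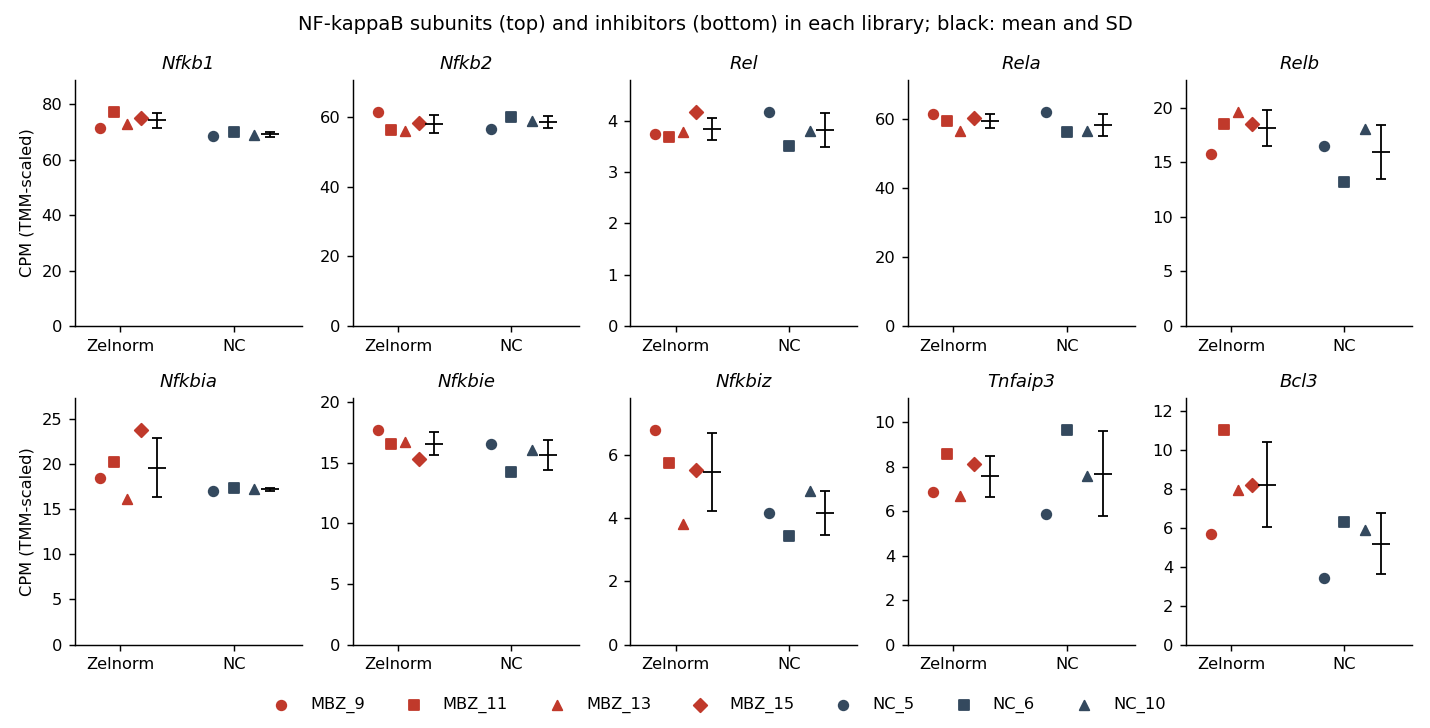
Level of each member in each library (CPM, axes starting at 0), with Zelnorm left and NC right; each symbol is a library, and the black bar gives mean and SD (n = 4 Zelnorm, n = 3 NC). In 9 of the 10 panels the groups overlap; the exception is Nfkb1, where the 4 Zelnorm libraries lie at 71.3 CPM or more and the 3 NC libraries at 70.0 CPM or less.

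Matches to the kappaB motif lie close to an annotated start of most members for which RefSeq promoter windows were given. The windows are shown because several of these genes are known targets of NF-kappaB itself. Windows of 300 bases, from 250 before to 50 after an annotated start (build GRCm38.p6), were given for 7 of the 10 members, 10 windows in all; Nfkb1, Relb and Nfkbiz are only named. The kappaB decamer consensus, searched on both strands, occurred in 8 of these 10 windows, whereas 4.51% of all 32851 promoter windows held it. By gene it occurred in 6 of the 7, and the share over all genes was not counted. The other 2 windows of Nfkb2, not shown, overlap and share a match, which is counted in both. All 3 windows of Nfkb2 lie at internal starts, inside the span from 46300994 to 46312400 given for the gene below. A match is a description of the letters, not a mapped binding site. Capitals mark the matches, and where matches overlap they run together. The window of Nfkbia (chr12:55492598-55492897, minus strand) is set beside the first of the 3 windows of Nfkb2 (chr19:46304487-46304786, plus strand), the window of Rel (chr11:23770920-23771219, minus strand), the window of Bcl3 (chr7:19822706-19823005, minus strand) and that of Rela (chr19:5637291-5637590, plus strand), each written 5′ to 3′ along its gene:
Nfkbia: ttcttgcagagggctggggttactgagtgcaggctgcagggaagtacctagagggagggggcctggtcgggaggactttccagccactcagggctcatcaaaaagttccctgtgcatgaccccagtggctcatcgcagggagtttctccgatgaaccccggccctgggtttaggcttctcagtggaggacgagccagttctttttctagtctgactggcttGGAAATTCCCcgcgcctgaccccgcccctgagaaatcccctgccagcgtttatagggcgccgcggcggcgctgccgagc
Nfkb2: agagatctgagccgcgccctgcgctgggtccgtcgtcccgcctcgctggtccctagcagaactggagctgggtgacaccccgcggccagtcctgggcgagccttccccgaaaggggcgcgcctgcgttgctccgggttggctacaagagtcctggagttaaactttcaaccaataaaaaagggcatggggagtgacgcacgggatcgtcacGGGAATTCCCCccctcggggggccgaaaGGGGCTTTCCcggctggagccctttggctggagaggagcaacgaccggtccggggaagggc
Rel: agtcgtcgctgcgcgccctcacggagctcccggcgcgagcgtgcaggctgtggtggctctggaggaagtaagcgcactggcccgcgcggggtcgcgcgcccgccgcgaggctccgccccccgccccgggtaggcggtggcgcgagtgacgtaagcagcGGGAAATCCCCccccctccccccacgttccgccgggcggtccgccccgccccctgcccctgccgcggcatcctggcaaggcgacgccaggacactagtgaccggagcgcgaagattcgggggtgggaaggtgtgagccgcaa
Bcl3: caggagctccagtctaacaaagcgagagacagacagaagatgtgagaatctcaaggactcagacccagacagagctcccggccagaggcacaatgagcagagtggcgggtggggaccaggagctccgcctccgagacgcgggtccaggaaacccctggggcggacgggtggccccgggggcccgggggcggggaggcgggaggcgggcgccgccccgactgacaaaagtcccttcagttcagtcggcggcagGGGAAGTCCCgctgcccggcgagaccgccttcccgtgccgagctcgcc
Rela: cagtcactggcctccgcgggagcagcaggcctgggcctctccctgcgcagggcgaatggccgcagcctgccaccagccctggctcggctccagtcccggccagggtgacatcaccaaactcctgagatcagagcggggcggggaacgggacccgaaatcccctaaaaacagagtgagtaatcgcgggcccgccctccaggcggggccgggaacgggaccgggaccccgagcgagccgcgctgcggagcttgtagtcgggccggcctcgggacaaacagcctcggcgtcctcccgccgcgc

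In Nfkbia the match began 29 bases before the start site and in the Nfkb2 window shown 2 overlapping matches began 39 and 38 bases before it, with a further match beginning 11 bases before it. The overlapping pair in Rel began 92 and 91 bases before the start, and the match of Bcl3 began at base 3 after it. The Rela window held 0 matches, which says only that these letters do not occur in it. Tnfaip3 had 2 matches in its upstream window, beginning 125 and 12 bases before the start, and 0 in a second, internal window. Nfkbie had 1 match, beginning 106 bases before the start.

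Rela, on chromosome 19 (GRCm38, 5637442 to 5648134), encodes p65, the main activating subunit of the canonical pathway. Its levels in the Zelnorm libraries MBZ_9, MBZ_11, MBZ_13 and MBZ_15 were 61.5, 59.3, 56.7 and 60.4 CPM, against 62.1, 56.1 and 56.7 CPM in the NC libraries NC_5, NC_6 and NC_10. The highest and the lowest value of Rela both belonged to NC libraries, so the NC range enclosed the Zelnorm range. Rela had a log2 fold change of 0.03 ± 0.06 (SE), and its edgeR adjusted p was 0.917. The 95% interval, -0.11 to 0.17, corresponds to a ratio of Zelnorm to NC between 0.927 and 1.122.

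Nfkb1 (chromosome 3, 135584655 to 135691969) encodes p105, the precursor of p50, which pairs with p65 and also acts as an inhibitor before processing. It had 71.3, 77.2, 72.8 and 75.1 CPM in MBZ_9, MBZ_11, MBZ_13 and MBZ_15, against 68.4, 70.0 and 68.8 CPM in NC_5, NC_6 and NC_10. Every Zelnorm library exceeded every NC library. Such a separation was found upward in 5.33%, downward in 4.27% and in either direction in 9.6% of all tested genes. The means were close, 74.1 ± 2.58 CPM in Zelnorm (SD, n = 4) and 69.1 ± 0.836 CPM in NC (SD, n = 3). On the log2 scale the difference was 0.10 ± 0.06 (SE; edgeR adjusted p = 0.569), with a 95% interval from -0.02 to 0.22.

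Nfkb2 (chromosome 19, 46300994 to 46312400), which encodes p100, the precursor of p52 in the non-canonical route, had 61.5, 56.2, 56.0 and 58.4 CPM in MBZ_9, MBZ_11, MBZ_13 and MBZ_15, against 56.7, 60.1 and 58.8 CPM in NC_5, NC_6 and NC_10. The groups overlapped throughout. The estimate was -0.01 ± 0.06 on the log2 scale (SE; edgeR adjusted p = 0.962), a ratio between 0.905 and 1.09 by its 95% interval, and 92.2% of tested genes had a larger absolute log2 fold change. In GENCODE M21 an opposite-strand non-coding gene overlaps 11.6% of the exon bases of Nfkb2, and Psd overlaps 6.52%. The strand setting of the counting is not given in the sources used here, so reads there cannot be told apart.

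Relb (chromosome 7, 19606217 to 19629438) encodes the partner of p52 and is itself a known NF-kappaB target. It had 15.8, 18.5, 19.6 and 18.5 CPM in MBZ_9, MBZ_11, MBZ_13 and MBZ_15, against 16.5, 13.2 and 18.1 CPM in NC_5, NC_6 and NC_10. NC_6 was the lowest library and MBZ_9 lay below NC_5 and NC_10, so the groups overlapped. Relb had a log2 fold change of 0.19 ± 0.12 (SE, edgeR's adjusted p = 0.652), and it was 0.06 without NC_6 and 0.29 without NC_10. Rel (chromosome 11, 23736847 to 23770969), which encodes c-Rel, a subunit used mainly by lymphoid and myeloid cells, had 3.74, 3.67, 3.77 and 4.16 CPM in MBZ_9, MBZ_11, MBZ_13 and MBZ_15, against 4.17, 3.51 and 3.79 CPM in NC_5, NC_6 and NC_10. The groups of Rel overlapped, and the difference was 0.0054 ± 0.17 on the log2 scale (SE; edgeR adjusted p = 0.995). Its 95% interval, a ratio between 0.768 and 1.31, is wider than that of Rela or Nfkb2, and its 62 to 82 counts per library carry a counting error of 12.7% at the lowest count. The pan-leukocyte and macrophage sums given above overlapped between the groups through NC_10 only. Those of NC_5 and NC_6 lay below every Zelnorm library. The part of these cells in the values of Relb and Rel was not tested.

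Nfkbia (chromosome 12, 55489409 to 55492647) encodes IkappaBalpha, an inhibitor that NF-kappaB rapidly re-induces. It had 18.4, 20.2, 16.1 and 23.7 CPM in MBZ_9, MBZ_11, MBZ_13 and MBZ_15, against 17.01, 17.3 and 17.2 CPM in NC_5, NC_6 and NC_10. The NC libraries lay within a narrow band, whereas the Zelnorm libraries spread to both sides of it, with MBZ_13 below and MBZ_15 well above. The coefficient of variation was 16.4% among Zelnorm and 0.949% among NC libraries; this difference in spread was not tested. Nfkbia had a log2 fold change of 0.19 ± 0.12 (SE, edgeR's adjusted p = 0.642), which was 0.08 without MBZ_15 and 0.28 without MBZ_13. MBZ_15 also had the highest sums of skeletal muscle markers, 256 CPM, and fibroblast markers, 1500 CPM, whose part in the value was not tested.

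Nfkbie (chromosome 17, 45555700 to 45563169) encodes IkappaBepsilon, an inhibitor that acts later and prominently on c-Rel dimers. It had 17.7, 16.5, 16.7 and 15.3 CPM in MBZ_9, MBZ_11, MBZ_13 and MBZ_15, against 16.6, 14.3 and 16.1 CPM in NC_5, NC_6 and NC_10. The groups overlapped, with MBZ_15 below NC_5 and NC_10, and the log2 fold change was 0.08 ± 0.09 (SE; edgeR adjusted p = 0.821). Tnfaip3 (chromosome 10, 19000910 to 19015410) encodes A20, a ubiquitin-editing enzyme that shuts off signalling upstream of IKK. It had 6.85, 8.59, 6.70 and 8.13 CPM in MBZ_9, MBZ_11, MBZ_13 and MBZ_15, against 5.85, 9.63 and 7.59 CPM in NC_5, NC_6 and NC_10. Both the lowest and the highest library were NC ones. The difference for Tnfaip3 was -0.02 ± 0.18 on the log2 scale (SE; edgeR adjusted p = 0.977), and it was 0.16 without NC_6 and -0.19 without NC_5.

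Nfkbiz (chromosome 16, 55811375 to 55838954) encodes IkappaBzeta, a nuclear protein that restrains some NF-kappaB targets and activates others, among them secondary response genes of macrophages. It had 6.79, 5.74, 3.83 and 5.54 CPM in MBZ_9, MBZ_11, MBZ_13 and MBZ_15, against 4.17, 3.45 and 4.85 CPM in NC_5, NC_6 and NC_10. Of the Zelnorm libraries 3 lay above every NC library, while MBZ_13 lay between NC_6 and NC_5. Nfkbiz had a log2 fold change of 0.39 ± 0.22 (SE, edgeR's adjusted p = 0.580), with a 95% interval from -0.09 to 0.88. The estimate was 0.53 without MBZ_13 and 0.27 without NC_6.

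Bcl3 (chromosome 7, 19808462 to 19822824) had the largest log2 fold change of the 10 members. It encodes a nuclear IkappaB-like protein that binds p50 and p52 homodimers and can either repress or activate their targets. Bcl3 had 5.70, 11.015, 7.93 and 8.23 CPM in MBZ_9, MBZ_11, MBZ_13 and MBZ_15, against 3.41, 6.29 and 5.87 CPM in NC_5, NC_6 and NC_10. MBZ_11, MBZ_13 and MBZ_15 exceeded every NC library, whereas MBZ_9 lay below NC_6 and NC_10. The means were 8.22 ± 2.18 CPM in Zelnorm (SD, n = 4) and 5.19 ± 1.55 CPM in NC (SD, n = 3). The log2 fold change was 0.66 ± 0.26 (SE; edgeR unadjusted p = 0.0262, adjusted p = 0.403), a ratio of 1.58 with a 95% interval from 1.07 to 2.34. A larger absolute log2 fold change was found in 5.62% of all tested genes.

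The value of Bcl3 depended on the libraries at both ends. Without NC_5, its lowest library, the log2 fold change was 0.43 (edgeR unadjusted p = 0.104), and without MBZ_11, its highest, it was 0.49 (edgeR unadjusted p = 0.0848). MBZ_11 also had the highest pan-leukocyte sum, 380 CPM, and the highest macrophage sum, 596 CPM. NC_5 had low values of both, 186 and 234 CPM, while NC_6, with 175 and 213 CPM, was lower still but had more Bcl3 than the other NC libraries. The part of these cells in the result was not tested. An opposite-strand antisense gene overlaps 6.51% of the exon bases of Bcl3, where reads cannot be told apart.

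**Figure D2:**
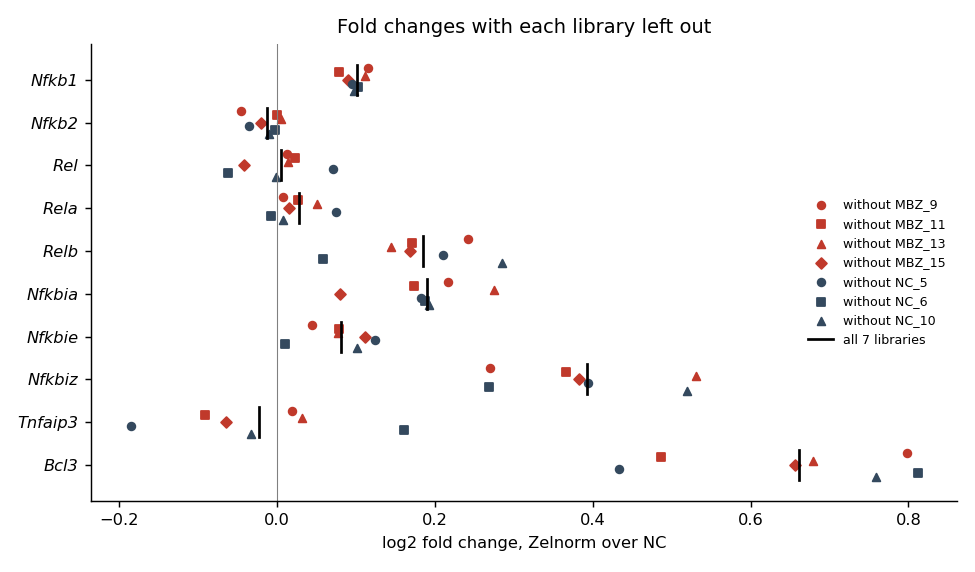
Log2 fold change (Zelnorm over NC) of each member with all 7 libraries (black bars) and with each library left out (symbols, red for Zelnorm and dark for NC libraries). Rela, Nfkb1 and Nfkb2 stay between -0.045 and 0.12, whereas Bcl3 ranges from 0.43 to 0.81 and Tnfaip3 lies on both sides of 0.

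In the plot of values with each library left out, Nfkb1, Nfkb2 and Rela had the narrowest ranges of the 10 members. Summed over the 5 subunits, the level was 214 ± 3.29 CPM in Zelnorm (SD, n = 4), within 209 to 217 CPM, and 206 ± 2.52 CPM in NC (SD, n = 3), within 203 to 208 CPM, and Nfkb1 made up the largest part of that difference. Summed over the 5 inhibitors it was 57.4 ± 5.03 CPM in Zelnorm, within 51.3 to 62.1 CPM, and 49.9 ± 2.49 CPM in NC, within 47.0 to 51.6 CPM. The inhibitor sums overlapped, with MBZ_13 below NC_10, while the subunit sums did not. Nfkb1, which is part of the subunit sums, was the only subunit whose groups did not overlap. These sums are descriptions and were not tested.

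**Figure D3:**
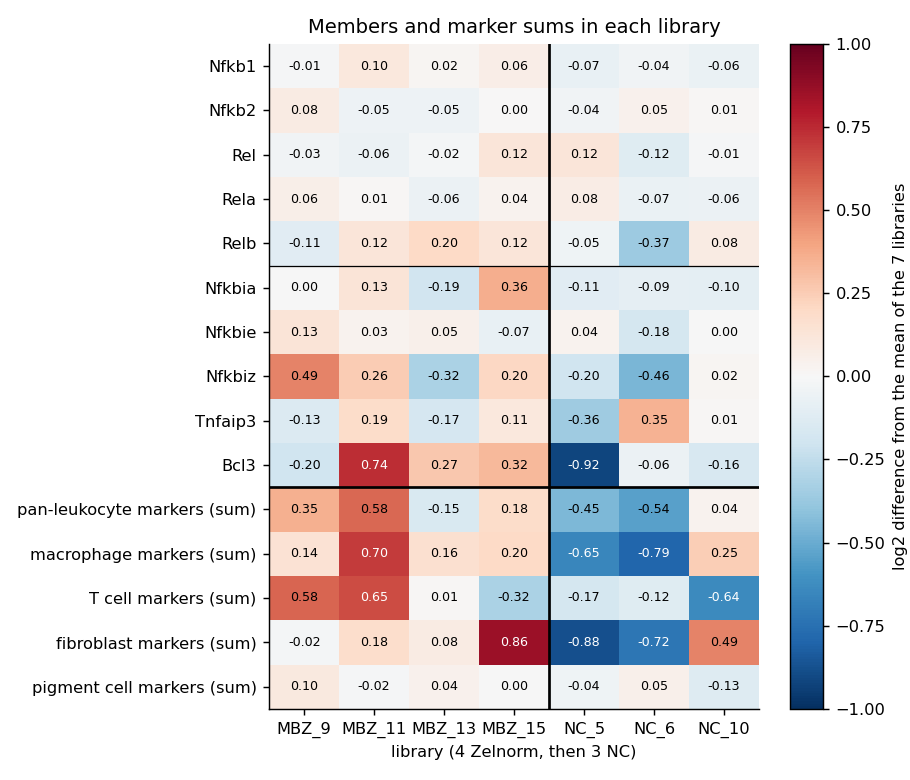
Log2 difference of each library from the mean of all 7, for the members (log2 CPM, subunits above the thin line, inhibitors below it) and for the summed CPM of 5 marker lists (below the thick line), with 4 Zelnorm libraries left and 3 NC libraries right of the vertical line. The rows of Rela, Nfkb1 and Nfkb2 stay between -0.07 and 0.10, Bcl3 runs from -0.92 in NC_5 to 0.74 in MBZ_11, and the macrophage sum from -0.79 in NC_6 to 0.70 in MBZ_11.

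Levels can be compared between members only per length. Divided by the merged exon length of GENCODE M21 (in kb), Rela was the most abundant at 19.4 ± 0.674 CPM per kb in Zelnorm (SD, n = 4) and 19.0 ± 1.08 CPM per kb in NC (SD, n = 3). Nfkb2 followed with 12.7 ± 0.555 in Zelnorm and 12.8 ± 0.372 in NC, and Nfkbia with 12.2 ± 1.9975 in Zelnorm and 10.7 ± 0.101 in NC, all in CPM per kb. Then came Nfkb1 (6.15 in Zelnorm and 5.73 in NC), Nfkbie (5.44 and 5.14), Relb (4.66 and 4.10) and Bcl3 (3.32 and 2.10), with Zelnorm before NC in each pair. The scarcest were Nfkbiz (1.09 in Zelnorm and 0.829 in NC), Tnfaip3 (1.05 in Zelnorm and 1.06 in NC) and Rel (0.514 in Zelnorm and 0.512 in NC). Within every library Nfkb1 exceeded Nfkbie, Nfkbie exceeded Relb and Relb exceeded Bcl3, although the ranges of each pair over libraries overlapped. The order of Nfkb2 and Nfkbia, and that of Nfkbiz and Tnfaip3, changed between libraries and is not resolved. The merged length counts every annotated isoform, 12061 bases for Nfkb1 against 3072 for Rela, which lowers the per-length level of genes with long alternative exons.

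**Figure D4:**
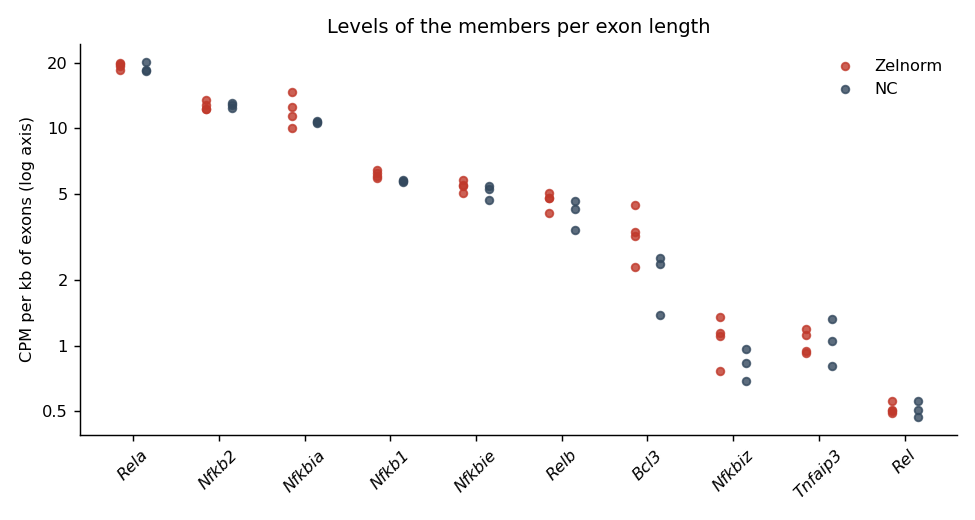
Level of each member per kb of merged exons (CPM per kb, log axis), with Zelnorm libraries left and NC libraries right for each gene. Rela lies between 18.3 and 20.2 in every library and Rel between 0.470 and 0.559.

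The pattern over the 7 libraries was compared with that of other tested genes by the root mean square difference of centred log2 CPM. Genes of mean log2 CPM of at least 3 were used, and symbols of gene models were left out. The other members were compared separately. Nearest to Rela were Nup62 (0.015) and Mgat1 (0.015), nearest to Nfkb2 were Rab11a (0.0094) and Ctps (0.016), and nearest to Nfkb1 were Igf1r (0.024) and Psma4 (0.026). Genes that vary little lie close to many others by this measure. For Bcl3 the nearest were Ly6c1 (0.18), a surface antigen of monocytes and endothelial cells, and Xdh (0.18), which encodes xanthine dehydrogenase. Their log2 fold changes were 0.71 for Ly6c1 and 0.64 for Xdh, beside 0.66 for Bcl3. The measure covers both groups, so similar fold changes follow from the selection and are no separate result. The nearest other member to Bcl3 was Tnfaip3, at 0.39.

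None of the genes listed for the steps upstream of the subunits passed the adjusted test. All 18 listed genes of IKK activation were testable, and 0 passed edgeR's adjusted threshold in either direction. At an unadjusted p under 0.05, 1 was higher and 1 was lower, beside 6.94% and 3.38% of all tested genes, and the median log2 fold change was -0.04. The groups did not overlap for 4 of the 18 genes, beside 9.6% of all tested genes, and these 4 are the ones with the smallest p. Tab1, an adaptor of the kinase TAK1 upstream of IKK, had 30.0, 30.7, 33.2 and 25.9 CPM in MBZ_9, MBZ_11, MBZ_13 and MBZ_15, against 34.2, 33.8 and 40.1 CPM in NC_5, NC_6 and NC_10. Every Zelnorm library of Tab1 lay below every NC library (log2 fold change -0.27 ± 0.10, SE; edgeR adjusted p = 0.364). Tbk1, an IKK-related kinase that mainly drives interferon induction, had 34.5 ± 0.367 CPM in Zelnorm (SD, n = 4) and 31.2 ± 1.22 CPM in NC (SD, n = 3), again with no overlap (0.15 ± 0.06, SE; edgeR adjusted p = 0.456). The ubiquitin ligase gene Birc2 (log2 fold change -0.18) and the TAK1 gene Map3k7 (-0.12) had lower values in every Zelnorm library, with edgeR adjusted p = 0.546 and 0.594.

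Of 15 other inhibitors of the pathway 13 were testable; 0 passed at an adjusted edgeR p under 0.05 and 0 at an unadjusted one, and the median log2 fold change was -0.02. The smallest p belonged to Tnip1, which encodes an A20-binding protein, at 113 ± 9.57 CPM in Zelnorm (SD, n = 4) and 102 ± 9.12 CPM in NC (SD, n = 3; log2 fold change 0.15 ± 0.08, SE; edgeR adjusted p = 0.577). Zc3h12a, which encodes the RNase Regnase-1, had a log2 fold change of 0.28, Commd1 of -0.09 and N4bp1 of 0.07.

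Most listed transcriptional targets of the canonical pathway had positive log2 fold changes, but none passed edgeR's adjusted threshold. Of 32 listed targets 25 were testable, 23 of them with a positive log2 fold change, and their median was 0.60, beside 0.00036 over all genes. In edgeR 0 rose and 0 fell after adjustment, whereas at an unadjusted p under 0.05, 8 were higher and 1 lower, beside 6.94% and 3.38% of all tested genes. The groups did not overlap for 4 higher targets (Csf1, Vcam1, Clec4e and Tnf) and 1 lower (Ier3), beside 5.33% and 4.27% of all tested genes. Clec4e and Tnf had at most 7 counts in any NC library and passed the filter on low counts through Zelnorm libraries only. Their higher values in Zelnorm therefore follow in part from the filter and are no separate result. Several of the listed targets are expressed mainly by leukocytes, whose marker sums are given above, and the part of those cells was not tested. A difference between targets and members was not tested. The list of targets was chosen with earlier results of these data known, so its comparison with all genes is a description only.

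Csf1, which encodes the macrophage growth factor M-CSF, had 26.5, 30.6, 25.3 and 27.7 CPM in MBZ_9, MBZ_11, MBZ_13 and MBZ_15, against 17.3, 18.2 and 19.0 CPM in NC_5, NC_6 and NC_10. Ier3, an early response gene that is also under growth factor control, had 74.0, 68.2, 63.0 and 74.2 CPM in MBZ_9, MBZ_11, MBZ_13 and MBZ_15, against 116, 96.8 and 99.3 CPM in NC_5, NC_6 and NC_10. The groups overlapped for neither gene, with Csf1 higher and Ier3 lower in Zelnorm tumours. Both had an edgeR adjusted p of 0.0559, at log2 fold changes of 0.60 ± 0.09 for Csf1 and -0.58 ± 0.08 for Ier3 (SE), and both passed the threshold in DESeq2. Vcam1, an adhesion molecule for leukocytes, had 9.67, 11.8, 8.55 and 6.55 CPM in MBZ_9, MBZ_11, MBZ_13 and MBZ_15, against 3.41, 4.96 and 5.11 CPM in NC_5, NC_6 and NC_10. It too separated the groups (log2 fold change 1.02 ± 0.22, SE; edgeR adjusted p = 0.152) and passed in DESeq2.

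Clec4e, a C-type lectin of activated macrophages, was near the limit of detection, with 25, 12, 9 and 28 counts in MBZ_9, MBZ_11, MBZ_13 and MBZ_15, against 6, 7 and 3 counts in NC_5, NC_6 and NC_10 (edgeR adjusted p = 0.268). Cytokine and chemokine genes among the targets differed widely in count. Cxcl10, which encodes a chemokine for T cells, had 977, 1186, 844 and 945 counts in MBZ_9, MBZ_11, MBZ_13 and MBZ_15, against 660, 922 and 468 counts in NC_5, NC_6 and NC_10, and the groups overlapped. Tnf had 10, 11, 17 and 11 counts in MBZ_9, MBZ_11, MBZ_13 and MBZ_15, against 7, 4 and 6 counts in NC_5, NC_6 and NC_10, and Il6 had at most 5 counts in any library. Ccl20 had 0 counts in every library, which allows up to 3 counts, or 0.152 to 0.178 CPM. Cxcl10, Tnf, Il6 and Ccl20 were named for their role, after their values had been seen.

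The non-canonical target list could hardly be measured. Of its 6 genes only Cxcl12 was testable, a chemokine made mainly by stromal cells, with 21.0, 26.1, 15.3 and 13.7 CPM in MBZ_9, MBZ_11, MBZ_13 and MBZ_15, against 12.3, 10.8 and 16.2 CPM in NC_5, NC_6 and NC_10. The groups overlapped (log2 fold change 0.53 ± 0.22, SE; edgeR adjusted p = 0.442). All 6 fibroblast markers also had positive log2 fold changes, with sums from 817 to 1500 CPM in Zelnorm and from 450 to 1165 CPM in NC tumours, and the part of these cells was not tested. The other listed genes, Ccl19, Ccl21a, Cxcl13, Tnfsf13b and Madcam1, had at most 8 counts in a library.

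**Figure D5:**
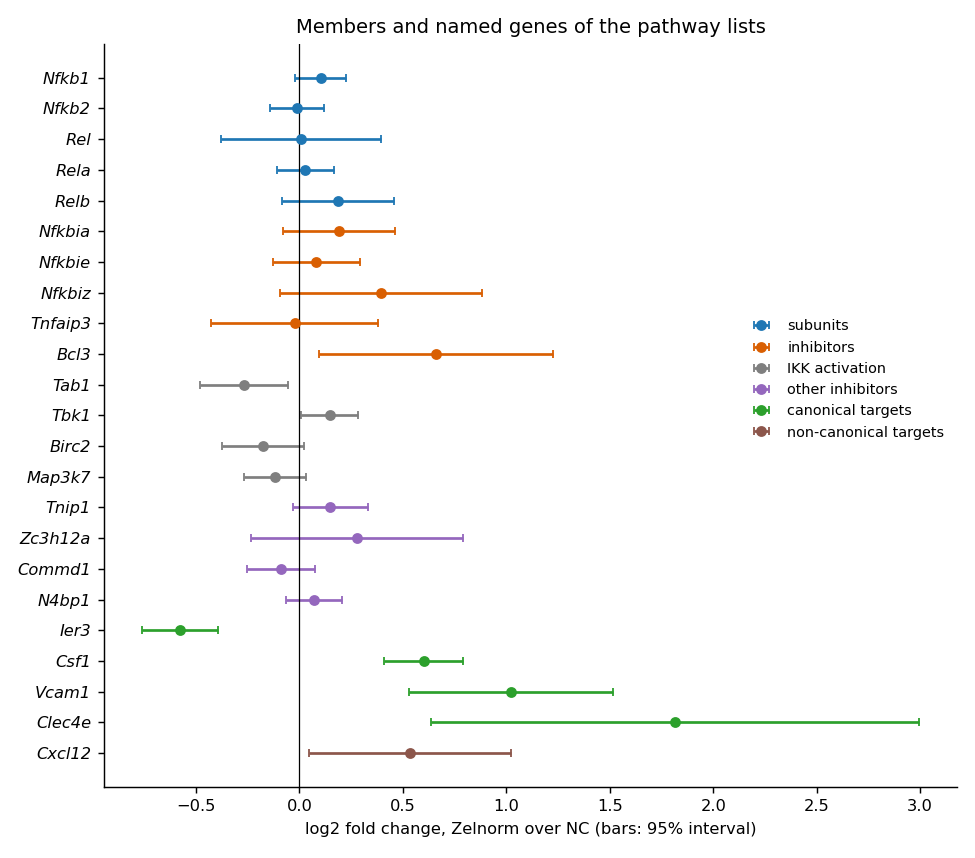
Log2 fold change (Zelnorm over NC) with 95% intervals from edgeR for the 10 members and for the up to 4 genes of each pathway list with the smallest p, coloured by list. Of the 10 members, the interval of Bcl3 (0.10 to 1.23) lies above 0 and the others include 0.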

How the data were processed

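Messenger RNA of 7 B16F10 tumours was sequenced from stranded TruSeq libraries, per the labels' protocols. The authors deposited raw read counts per gene. The submitters' processing notes name Trimmomatic, HISAT2, HTSeq, Cufflinks and DESeq and the builds GRCm38 and GRCh38. Versions, annotation, filters and the strand setting were not given in the sources used here. Columns name groups but match no replicate number of the titles. Coordinates and promoters are from RefSeq (GRCm38.p6), where 21727 gene identifiers matched; 27 symbols turned into dates were restored by identifier.

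Genes were filtered with filterByExpr, scaled by TMM (factors 0.986 to 1.01) and tested with edgeR 4.0.16 (quasi-likelihood, R 4.3.3, common biological coefficient of variation 0.111). SE and 95% intervals were derived from the F statistic. Scripts were tested on simulated data. Alternatives used DESeq2 1.42.0, limma 3.58.1 voom, other scalings and filters, a threshold of 0.1 and each library left out. Floors of 3 counts cover counting error only. Members and lists were chosen with earlier results of these data known. Named genes are all members, up to 4 per pathway list by smallest p, and the 2 genes nearest each member, described for 4 members. Figures were drawn with matplotlib 3.10.9.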

Additional observations from a re-analysis of the deposited data

How the results depend on the processing

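The count of members past the adjusted threshold was 0 under every alternative run: RLE and upper quartile scaling, no filter, at least 10 counts in every library, DESeq2, limma voom, a threshold of 0.1 and each of the 7 libraries left out. The count at an unadjusted p under 0.05 was 1 under the other tools, scalings and filters and ran from 0 (without MBZ_11 or NC_5) to 3 (without MBZ_13: Bcl3, Nfkbia and Nfkbiz) with a library left out. Over all alternatives the edgeR, DESeq2 or limma adjusted p of Bcl3 ran from 0.254 to 0.751, and the members' median log2 fold change from 0.08 to 0.11. Genes of the pathway lists past the threshold, 0 with all libraries, numbered 2 without a filter (Csf1 and Ier3), 3 with DESeq2 (with Vcam1), 2 at the threshold of 0.1 (beside 34, 206 and 32 genes called in the whole table, against 4 in the fit reported), and 0 to 2 with a library left out (Ier3 without MBZ_15, Csf1 and Ier3 without NC_10). Without NC_5 edgeR called 0 genes in the whole table (977 at an unadjusted p under 0.05), and without NC_10 it called 161. Near 0 the sign turned: Rel was at -0.00065 with RLE, -0.00097 without a filter and -0.0025 with DESeq2, and between -0.061 and 0.071 with a library left out. Tnfaip3 was at 0.0020 with limma voom and between -0.19 and 0.16 with a library left out, Rela between -0.0074 and 0.076, and Nfkb2 between -0.045 and 0.0048. The cause was not tested. No paired analysis was possible because the columns carry no replicate numbers of the titles. Rel, Nfkbiz, Bcl3 and Tnfaip3 had the fewest counts, 62 to 186 per library. The spread between libraries of Bcl3 (coefficient of variation 26.5% in Zelnorm and 30.0% in NC) exceeded its counting error of 12.6% at the lowest count. The same held for Nfkbiz and Tnfaip3. The spread of Rel (5.80% in Zelnorm and 8.69% in NC) lay below its counting error of 12.7%. The part of depth in these spreads was not tested.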
